A study of Mus musculus with 11 samples.

Results

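A gapmer that targets MERRICAL, a long noncoding RNA, was compared with a gapmer labelled NS in mouse bone marrow derived macrophages of the M1 state, from 5 of the 11 RNA sequencing libraries of the series. They were taken by their labels: 3 libraries of M1 cells with a gapmer labelled NS (M1 NS, replicates 1, 2 and 4) and 2 of M1 cells with the MERRICAL gapmer (M1 KD, replicates 5 and 6). All cells are labelled C57BL/6, and the design text gives 16 hours with either gapmer. The labels also carry a treatment code, G2 for M1 NS and G4 for M1 KD. The other 6 libraries are M0 cells with the same gapmers, 3 of each. The stimulus behind the M1 label, the order of stimulus and gapmer, the gapmer sequences and the number of animals are given by no source used here. No label calls the replicates separate cultures, and the p-values reflect the spread of these libraries alone, which could be technical. No replicate number occurs in both M1 groups, so anything that goes with the numbers cannot be told apart from the gapmer.

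A gapmer is a short antisense oligonucleotide with a DNA centre that directs RNase H to the RNA it pairs with, also in the nucleus, which makes it a usual tool against long noncoding RNAs. Classically activated (M1) macrophages make nitric oxide, inflammatory cytokines and chemokines, small secreted proteins that draw leukocytes through G protein-coupled receptors. MERRICAL was studied for its bearing on macrophage chemotaxis and on the neighbouring chemokine genes Ccl3 and Ccl4.

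Total counts of the 5 libraries ran from 30040632 to 43250392. Of 42375 named genes, 13565 had enough counts to be tested. Across these genes, Pearson's r of log2 CPM (CPM is a gene's count scaled to the library total, with TMM factors) was 0.970 to 0.988 within M1 NS, 0.979 within M1 KD and 0.936 to 0.954 between the groups. Mitochondrially encoded transcripts held 0.488% to 0.891% of counts in M1 NS and 0.522% and 0.727% in M1 KD. The 50 most abundant genes of a library held 21.6% to 21.9% of its counts in M1 NS and 26.6% and 26.7% in M1 KD. No gene of the table is named MERRICAL, so the fall of the target itself was not analysed here. Macrophage genes were abundant in every library: Emr1, which encodes F4/80, was at 3495, 3472 and 3859.5 CPM in M1 NS and 2069 and 2219 in M1 KD. Csf1r, the receptor of the macrophage growth factor CSF1, was at 418, 517 and 845 CPM in M1 NS and 693 and 416 in M1 KD. Nos2, the inducible nitric oxide synthase that marks the M1 state, was at 3247, 3557 and 3218 CPM in M1 NS and 4911 and 4837 in M1 KD. The defining T cell genes Cd3e, Cd3d and Cd3g and the NK cell gene Ncr1 were at most at 0.239 CPM in any of the 5 libraries. Emr1 was called lower (adjusted p = 0.0419), a call lost without M1 NS replicate 1 (0.129), M1 NS replicate 2 (0.0849), M1 KD replicate 5 (0.184) or M1 KD replicate 6 (0.121) and with upper-quartile scaling.

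Between the groups, 3104 of 13565 genes (22.9%) passed an adjusted p of 0.05 in edgeR's quasi-likelihood test, 1558 higher in M1 KD (11.5%) and 1546 lower (11.4%). Over all genes tested the log2 fold change had a median of 0.02, with quartiles of -0.51 and 0.54. Of the called genes, 367 rose and 250 fell at least 4-fold. The shares of all genes, 11.5% higher and 11.4% lower, are those to set beside each list count below. In bulk samples, fewer cells of a type and less RNA per cell cannot be told apart, for any gene here. The 2 groups had separate CPM ranges in 54.8% of genes, 28.3% with M1 KD above and 26.5% below. The count leaned on single libraries: it was 832 without M1 KD replicate 5, 1634 without M1 KD replicate 6 and 1552 without M1 NS replicate 1, against 4025 without M1 NS replicate 4. The gene lists below leaned on them too. Of 71 list counts of 3 or more, 68 moved by over 1.5 times without some single library, 65 of them without M1 KD replicate 5, as did 33 of 34 counts of 1 or 2. With all 11 libraries in the fit 21 of the 71 moved that far, and with any other scaling, tool or filter at most 7. With upper-quartile scaling, which moved the median of all genes to 0.13, the split was 2013 higher and 1223 lower. In the plot of change against level, called genes lie at all levels on either side of 0.

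**Figure D1:**
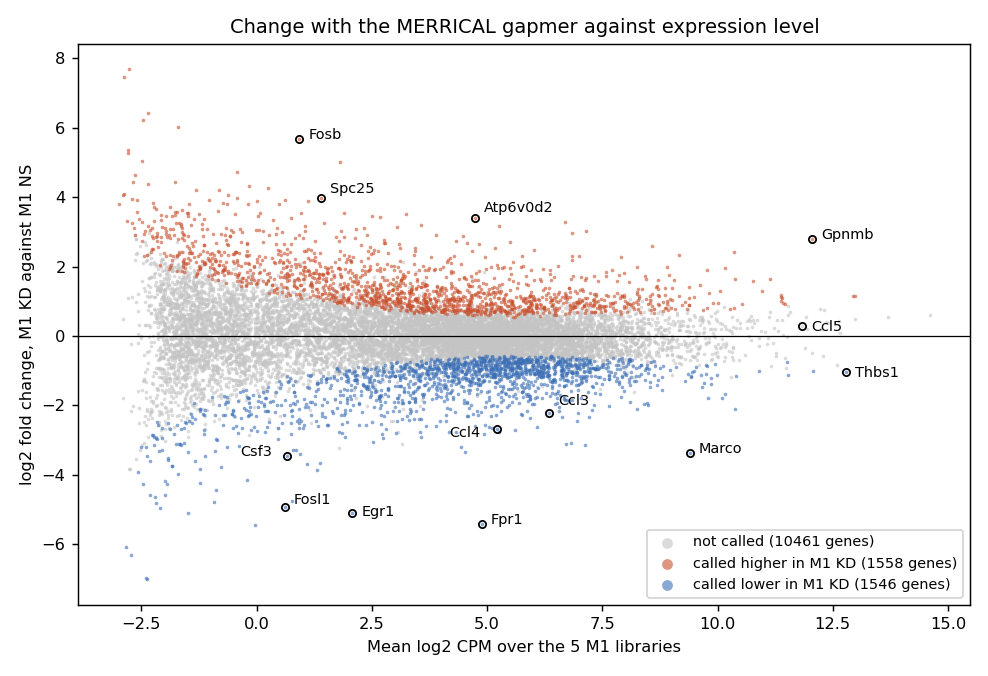
The log2 fold change of M1 KD against M1 NS (vertical) is plotted against the mean log2 CPM over the 5 libraries (horizontal) for the 13565 genes tested, each point a gene. The 1558 genes called higher and the 1546 called lower are coloured, and all circled genes but Thbs1 are named in the text. Fpr1, Egr1 and Fosl1 stand lowest among the circled genes and Fosb highest.

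Ccl3 and Ccl4, which encode inflammatory chemokines, were lower in both M1 KD libraries. Ccl3 (chr11:83647844-83649355, minus strand, GRCm38) was at 204, 132 and 137 CPM in M1 NS replicates 1, 2 and 4, and 19.5 and 48.8 CPM in M1 KD replicates 5 and 6. Ccl4 (chr11:83662584-83664683, plus strand) was at 117, 99 and 46.9 CPM in M1 NS replicates 1, 2 and 4, and 5.88 and 21.3 CPM in M1 KD replicates 5 and 6. In neither gene did the groups overlap, and M1 KD replicate 5 was the lower of the pair in both. The log2 fold change was -2.21 for Ccl3 (SE 0.40, adjusted p = 0.00707) and -2.69 for Ccl4 (SE 0.64, adjusted p = 0.0281). Ccl3 was called without any 1 of the 5 libraries, with values from -3.03 to -1.71. The Ccl4 call was lost without M1 NS replicate 1 (0.0916), M1 NS replicate 2 (0.0629), M1 NS replicate 4 (0.0801) or M1 KD replicate 5 (0.0553), and with no filter on low counts (0.138).

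The genes around this pair were tested too. Of 44 annotated genes within 500 kb on either side that the table holds, 25 were tested; each of the other 19 had at most 10 counts in every library. Of the 25, 4 were called higher and 4 lower, beside 11.5% and 11.4% of all genes. Ccl6, a monocyte-attracting chemokine gene that starts 56.27 kb from the Ccl3 start, was at 24.2, 27.6 and 14.8 CPM in M1 NS and 93.7 and 79.7 in M1 KD and rose (log2 fold change 1.97, SE 0.26, adjusted p = 0.00209). Ccl9, another chemokine gene of this cluster, was at 151, 124 and 84.6 CPM in M1 NS and 591 and 271 in M1 KD and rose as well (log2 fold change 1.85, SE 0.35, adjusted p = 0.00789). Wfdc17, which encodes a small secreted WAP-domain protein, was at 229, 201 and 131 CPM in M1 NS and 346 and 466 in M1 KD, a rise of 1.12 (adjusted p = 0.0202). Groups overlapped in none of these genes. Ccl5, the most abundant CC or CXC chemokine gene of the 5 libraries, starts 118.8 kb from Ccl3 and was at 3409, 4062 and 2716 CPM in M1 NS and 3467 and 4881 in M1 KD. Its groups overlapped and it was not called (log2 fold change 0.30, SE 0.27, adjusted p = 0.451). The noncoding gene AI662270 (chr11:83223576-83226604, plus strand), with its start 425.8 kb from that of Ccl3, was at 58, 40 and 64 CPM in M1 NS and 10.8 and 12.9 in M1 KD and fell (log2 fold change -2.19, SE 0.25, adjusted p = 0.00133). Acaca, the acetyl-CoA carboxylase of fatty acid synthesis at the far edge of the window, was at 15.4, 15.7 and 18 CPM in M1 NS and 10.2 and 6.86 in M1 KD and fell by 0.94 on the log2 scale (adjusted p = 0.0266). The fourth gene called higher, 1700020L24Rik, had under 1.2 CPM in every library, and its call was lost without any 1 of them. Calls were also lost for Ccl9 without M1 KD replicate 5 (0.0713), Wfdc17 without M1 KD replicate 5 (0.0546) or M1 KD replicate 6 (0.127) and Acaca without M1 NS replicate 1 (0.0649), M1 KD replicate 5 (0.0512) or M1 KD replicate 6 (0.161).

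**Figure D2:**
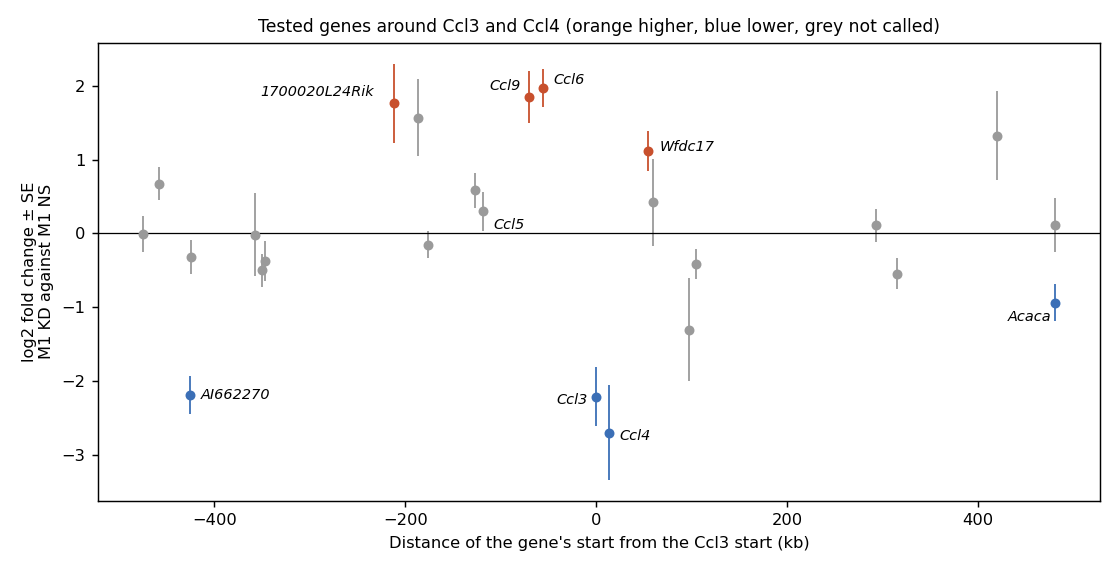
The log2 fold change of M1 KD against M1 NS with its SE (vertical) is plotted for the 25 tested genes against the distance of their start from that of Ccl3 in kb (horizontal). Ccl3, Ccl4, AI662270 and Acaca are the 4 genes called lower, and Ccl9, Ccl6, Wfdc17 and 1700020L24Rik the 4 called higher.

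Among all CC and CXC chemokine ligands, 7 of 24 tested were higher and 5 lower, beside 11.5% and 11.4% of all genes. The list median was 0.24, against 0.02 for all genes. Ccl8, a ligand made by monocytes and macrophages, had the largest rise and was at 22.9, 20.1 and 9.39 CPM in M1 NS and 67.1 and 100.4 in M1 KD (log2 fold change 2.26, SE 0.35, adjusted p = 0.00404). Pf4, the platelet factor 4 gene that macrophages also express, was at 34.6, 37.7 and 15.9 CPM in M1 NS and 114 and 87.1 in M1 KD (log2 fold change 1.77, SE 0.33, adjusted p = 0.00802). Ccl2, the main monocyte attractant, was lower, at 131, 111 and 231 CPM in M1 NS and 70 and 47.2 in M1 KD (log2 fold change -1.43, SE 0.34, adjusted p = 0.0190). Its neighbour Ccl7 was at 46.2, 32.2 and 55.2 CPM in M1 NS and 22.8 and 12.5 in M1 KD (log2 fold change -1.33, SE 0.31, adjusted p = 0.0177). The neutrophil attractant Cxcl2 was at 57.2, 53.3 and 38.3 CPM in M1 NS and 23.6 and 20.2 in M1 KD (log2 fold change -1.18, SE 0.23, adjusted p = 0.00804). Groups overlapped in none of these 5 genes. Cxcl10, an interferon-induced attractant of T cells, was at 2651, 2592 and 2152 CPM in M1 NS and 2127 and 3278 in M1 KD and was not called (adjusted p = 0.742). Calls were lost for Pf4 without M1 KD replicate 5 (0.0608), Ccl2 without M1 KD replicate 5 (0.0599) or M1 KD replicate 6 (0.117), Ccl7 without M1 KD replicate 6 (0.101) and Cxcl2 without M1 KD replicate 6 (0.0589), and those of Ccl2 and Ccl7 also with all 11 libraries in the fit (0.0838 and 0.0625). Leaving out 1 library gave 4 higher without M1 NS replicate 1, M1 NS replicate 2, M1 KD replicate 5 or M1 KD replicate 6, and 3 lower without M1 KD replicate 5 and 2 without M1 KD replicate 6.

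Of receptors that steer migration, 11 of 23 tested chemoattractant receptors were lower and 2 higher, with a list median of -0.965. Fpr1, the high-affinity receptor for bacterial formyl peptides, fell most of them and was at 106, 104 and 212 CPM in M1 NS replicates 1, 2 and 4, and 2.10 and 4.49 CPM in M1 KD replicates 5 and 6 (log2 fold change -5.42, SE 0.51, adjusted p = 0.000979). Its neighbour Fpr2, a formyl peptide receptor of broader ligands, was at 217, 194 and 428 CPM in M1 NS and 25 and 41.1 in M1 KD (log2 fold change -3.08, SE 0.42, adjusted p = 0.00246). The 2 genes lie side by side on chromosome 17 (chr17:17876471-17883940 and chr17:17887824-17893952). C5ar1, the receptor of the complement fragment C5a, was at 28.2, 32 and 43.1 CPM in M1 NS and 5.59 and 6.96 in M1 KD (log2 fold change -2.46, SE 0.26, adjusted p = 0.00107). Ccr2, the receptor of the Ccl2 product, was at 5.68, 4.53 and 6.61 CPM in M1 NS and 1.08 and 1.44 in M1 KD (log2 fold change -2.16, SE 0.34, adjusted p = 0.00351). In each of these 4 genes every M1 KD library lay below every M1 NS library. Of the 2 receptors that rose, Ccrl2, a chemerin-binding receptor, was at 606, 622 and 362 CPM in M1 NS and 1528 and 2402 in M1 KD (log2 fold change 1.89, SE 0.31, adjusted p = 0.00412). Cxcr4, the receptor of CXCL12, was at 1.78, 2.08 and 2.99 CPM in M1 NS and 11.5 and 8.77 in M1 KD (log2 fold change 2.15, SE 0.30, adjusted p = 0.00265). Ccr1, a receptor of the Ccl3 product, was at 24.5, 22.3 and 54.6 CPM in M1 NS and 34.4 and 13 in M1 KD, with overlapping groups (adjusted p = 0.512). The count of receptors lower was 7 without M1 NS replicate 1 and 6 without M1 KD replicate 5.

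Actin regulators give a migrating leukocyte its shape and traction. Of 47 tested, 21 were lower and 3 higher, with a median of -0.72. Coro1a, which encodes the actin-binding protein coronin 1A, was at 284, 372 and 204 CPM in M1 NS and 66.1 and 65 in M1 KD (log2 fold change -2.13, SE 0.29, adjusted p = 0.00224). Fgd3, an exchange factor for the GTPase CDC42, was at 51.9, 58.2 and 67 CPM in M1 NS and 13.8 and 15.5 in M1 KD (log2 fold change -2.01, SE 0.21, adjusted p = 0.000980). Pik3cg, the catalytic subunit of the phosphoinositide 3-kinase that G protein-coupled receptors activate, was at 39.7, 39.8 and 50.3 CPM in M1 NS and 6.21 and 6.37 in M1 KD (log2 fold change -2.78, SE 0.22, adjusted p = 0.000619). Every M1 KD library was below every M1 NS library in these 3 genes. Of the members that rose, Tmsb10, an actin monomer-binding thymosin, was at 406, 395 and 239 CPM in M1 NS and 1194 and 905 in M1 KD (log2 fold change 1.60, SE 0.28, adjusted p = 0.00569). Arpc3, a subunit of the Arp2/3 complex, was at 363, 385 and 277 CPM in M1 NS and 594 and 942 in M1 KD (log2 fold change 1.17, SE 0.27, adjusted p = 0.0152). Rac2 and Was were at log2 fold changes of -0.42 and -0.40 and were not called (adjusted p = 0.305 and 0.239). The count lower was 11 without M1 NS replicate 1 and 7 without M1 KD replicate 5 or M1 KD replicate 6, and the count higher 1 without M1 KD replicate 5. Calls were lost for Tmsb10 without M1 KD replicate 5 (0.051) and Arpc3 without M1 KD replicate 6 (0.123). With a smooth length and GC trend removed from each library, the list median was -0.63 and 23 members were lower.

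Among integrins, adhesion molecules and matrix enzymes, 9 of 40 were higher and 8 lower. Itgal, the alpha chain of the leukocyte integrin LFA-1, was at 1397, 1643 and 1345 CPM in M1 NS and 394 and 458 in M1 KD (log2 fold change -1.78, SE 0.24, adjusted p = 0.00223). Itga9 was at 57.3, 61.2 and 36.2 CPM in M1 NS and 8.0 and 15.3 in M1 KD (log2 fold change -2.15, SE 0.34, adjusted p = 0.00383). Itgam, the alpha chain of Mac-1, was at 179, 164 and 209 CPM in M1 NS and 112 and 137 in M1 KD and was not called (adjusted p = 0.0877). Mmp12, the macrophage elastase, was at 45.2, 36.2 and 47.9 CPM in M1 NS replicates 1, 2 and 4, and 557 and 275 CPM in M1 KD replicates 5 and 6, a rise of 3.27 (SE 0.31, adjusted p = 0.000800). Timp2, an inhibitor of matrix metalloproteinases, was at 20.5, 25.6 and 13.4 CPM in M1 NS and 83.4 and 73.7 in M1 KD (log2 fold change 1.99, SE 0.26, adjusted p = 0.00206). Groups overlapped in none of Itgal, Itga9, Mmp12 and Timp2. With 1 library left out there were 5 higher without M1 NS replicate 1 and 4 without M1 KD replicate 5, and 5 lower without M1 NS replicate 1 or M1 KD replicate 6 and 3 without M1 KD replicate 5.

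Inflammatory cytokine genes moved in either direction, 9 of 28 lower and 6 higher. Il12b, a subunit of interleukin 12, was at 704, 651 and 366 CPM in M1 NS and 85.6 and 183 in M1 KD (log2 fold change -2.10, SE 0.40, adjusted p = 0.00813). Csf3, the granulocyte growth factor G-CSF, was at 4.81, 5.84 and 1.96 CPM in M1 NS and 0.430 and 0.312 in M1 KD (log2 fold change -3.47, SE 0.56, adjusted p = 0.00398). Tnf was at 552, 616 and 462 CPM in M1 NS and 282 and 154 in M1 KD (log2 fold change -1.32, SE 0.30, adjusted p = 0.0153). Il1a was at 216, 186 and 299.6 CPM in M1 NS and 62.4 and 90.8 in M1 KD (log2 fold change -1.61, SE 0.28, adjusted p = 0.00586). Groups did not overlap in these 4 genes. Il1b, a cytokine whose release needs an inflammasome, was at 1873, 2060.5 and 2058 CPM in M1 NS and 214 and 942 in M1 KD, and its M1 KD libraries differed from each other by more than its M1 NS libraries did (log2 fold change -1.79, SE 0.55, adjusted p = 0.0492). Il6 was at 345, 257 and 195 CPM in M1 NS and 103 and 294 in M1 KD, with overlapping groups (adjusted p = 0.497). Spp1, which encodes osteopontin, was higher, at 172, 203 and 196 CPM in M1 NS and 1442 and 834 in M1 KD (log2 fold change 2.58, SE 0.27, adjusted p = 0.00102). Vegfa, the vascular growth factor, was at 235, 233 and 344 CPM in M1 NS and 734 and 921 in M1 KD (log2 fold change 1.61, SE 0.25, adjusted p = 0.00367). Il1rn, the interleukin 1 receptor antagonist, was at 881, 717 and 681 CPM in M1 NS and 2242 and 1451 in M1 KD (log2 fold change 1.28, SE 0.26, adjusted p = 0.00952). The counts became 3 lower without M1 KD replicate 5 and 5 without M1 KD replicate 6, and 3 higher without M1 KD replicate 5 or M1 KD replicate 6. Calls were lost for Il12b without M1 KD replicate 5 (0.0579), Tnf without M1 KD replicate 6 (0.0886), Il1a without M1 KD replicate 5 (0.0601), Il1b without M1 NS replicate 1 (0.108), M1 NS replicate 2 (0.107), M1 NS replicate 4 (0.243) or M1 KD replicate 5 (0.0708) and Il1rn without M1 KD replicate 5 (0.0923), and that of Il1b also with upper-quartile scaling and with a mean CPM filter of 1.

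In the inflammasome and interleukin 1 list, 7 of 23 were lower and 3 higher, Il1a, Il1b and Il1rn among them. Nlrp3, the sensor of the canonical inflammasome, was at 577, 591 and 504 CPM in M1 NS and 189.9 and 214 in M1 KD (log2 fold change -1.46, SE 0.22, adjusted p = 0.00336). Nlrc4, the sensor for flagellin, was at 19.2, 16.6 and 28.1 CPM in M1 NS and 6.57 and 4.84 in M1 KD (log2 fold change -1.90, SE 0.30, adjusted p = 0.00360). Casp1, the protease they activate, was at 427, 305 and 553 CPM in M1 NS and 429 and 330.0 in M1 KD and was not called (adjusted p = 0.686). No Toll-like receptor signalling gene rose, and 8 of 32 fell. Tlr4, the receptor for lipopolysaccharide, was at 26.1, 17.1 and 31.9 CPM in M1 NS and 7.19 and 7.96 in M1 KD (log2 fold change -1.73, SE 0.29, adjusted p = 0.00466). Tlr8, a receptor for single-stranded RNA, was at 111, 77.5 and 137 CPM in M1 NS and 19 and 29.7 in M1 KD (log2 fold change -2.16, SE 0.30, adjusted p = 0.00261). Irak3, a brake on the pathway, was at 132, 124 and 144 CPM in M1 NS and 40.2 and 40.2 in M1 KD (log2 fold change -1.73, SE 0.20, adjusted p = 0.00123). Each M1 KD library was below each M1 NS library in these 5 called genes. Myd88, the shared adaptor, was at a log2 fold change of -0.59 (adjusted p = 0.128). Leaving out 1 library gave 5 lower Toll-like receptor genes without M1 NS replicate 1 and 3 without M1 KD replicate 5, 2 lower inflammasome genes without M1 KD replicate 5, and 0 higher inflammasome genes without M1 KD replicate 5 and 1 without M1 KD replicate 6.

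Of 32 NF-kappaB subunits and feedback genes 1 was higher and 3 were lower, beside 11.5% and 11.4% of all genes. These counts became 0 higher without M1 NS replicate 1, M1 NS replicate 2, M1 KD replicate 5 or M1 KD replicate 6, and 8 lower without M1 NS replicate 4. Rela, a transactivating subunit, was at 156, 193 and 125 CPM in M1 NS and 187 and 182 in M1 KD. Nfkbia, which encodes the inhibitor IkappaB-alpha, was at 466, 526 and 385 CPM in M1 NS and 581 and 352 in M1 KD. Tnfaip3, the deubiquitinase A20, was at 484, 493 and 289.5 CPM in M1 NS and 332 and 295 in M1 KD. None of these 3 was called (adjusted p = 0.508, 0.960 and 0.281). Zc3h12c, an RNA-binding protein of the regnase family, was at 55.7, 42.2 and 65.5 CPM in M1 NS and 18 and 14.1 in M1 KD (log2 fold change -1.76, SE 0.25, adjusted p = 0.00246). Bcl2l1, which encodes the survival protein BCL-XL, was at 64.2, 66.6 and 60.7 CPM in M1 NS and 30.2 and 29.7 in M1 KD (log2 fold change -1.09, SE 0.18, adjusted p = 0.00422). Among classical activation markers, 6 of 27 were lower and 2 higher. Nos2, given above, was not called (log2 fold change 0.54, adjusted p = 0.102), nor was Ptgs2, the inducible cyclooxygenase, at 3550.5, 3001 and 3588 CPM in M1 NS and 1905 and 2401 in M1 KD (adjusted p = 0.0796). Irg1, which makes itaconate, was at 6144, 6217 and 5171 CPM in M1 NS and 4028 and 3853 in M1 KD (adjusted p = 0.107). The costimulatory gene Cd86 was at 495, 418 and 449 CPM in M1 NS and 464 and 579 in M1 KD (adjusted p = 0.541). Irf1, an interferon-induced transcription factor, was at 1125, 1355 and 934 CPM in M1 NS and 3904 and 2935 in M1 KD and rose (log2 fold change 1.59, SE 0.26, adjusted p = 0.00398). Gbp5, a guanylate-binding protein, was at 197, 194 and 149 CPM in M1 NS and 21.5 and 59.3 in M1 KD and fell (log2 fold change -2.16, SE 0.41, adjusted p = 0.00791). The count of classical markers lower was 3 without M1 KD replicate 5.

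Of 50 type I interferon-stimulated genes 5 were higher and 5 lower, near the 11.5% and 11.4% of all genes, with a median of 0.06. Isg15, a ubiquitin-like antiviral protein, was at 873, 909.7 and 528 CPM in M1 NS and 663 and 866 in M1 KD. Ifit1, a sensor of uncapped RNA, was at 892, 626 and 600.3 CPM in M1 NS and 350.1 and 881 in M1 KD. Neither was called (adjusted p = 0.982 and 0.731). Slfn1, of the Schlafen family, was at 110.5, 88.8 and 118 CPM in M1 NS and 40.6 and 41.1 in M1 KD and fell (log2 fold change -1.37, SE 0.21, adjusted p = 0.00325). Of 16 guanylate-binding proteins and immunity-related GTPases, 6 were lower and 2 higher, with Tgtp2 at 634, 535 and 732 CPM in M1 NS and 158 and 159 in M1 KD (log2 fold change -2.0, SE 0.24, adjusted p = 0.00152). The abundant Gbp2 was at 5993, 5731 and 5228 CPM in M1 NS and 7853 and 7357 in M1 KD and was not called (adjusted p = 0.194). How reads shared by members of this family were assigned was given by no source used here. Of 24 MHC class I presentation genes none was called higher and 2 were lower. This list does not hold the class I gene H2-K2, which was called higher and is given with the largest rises below. The list median was 0.18, with 15 members above 0. M1 KD lay above M1 NS without overlap in 9 members and below in 3, beside 28.3% and 26.5% of all genes. The falls numbered 0 without M1 NS replicate 1, M1 NS replicate 2 or M1 KD replicate 5 and 1 without M1 KD replicate 6, and upper-quartile scaling called 1 rise and 0 falls. H2-K1 was at 4302, 5560.3 and 3949 CPM in M1 NS and 5262 and 5323 in M1 KD (adjusted p = 0.582). Of 17 MHC class II presentation genes, 8 rose and none fell, with a median of 0.86. Ifi30, a lysosomal thiol reductase that opens antigens, was at 48, 62.7 and 57.9 CPM in M1 NS and 131 and 123 in M1 KD (log2 fold change 1.17, SE 0.19, adjusted p = 0.00422). Cd74, the invariant chain, was at 1568, 1938 and 1198 CPM in M1 NS and 1634 and 2696 in M1 KD and was not called (adjusted p = 0.284). With 1 library left out, rises numbered 1 in class II without M1 NS replicate 1, 4 without M1 NS replicate 2 or M1 KD replicate 6 and 2 without M1 KD replicate 5, and 2 in interferon-stimulated genes without M1 NS replicate 1 or M1 KD replicate 6, 3 without M1 NS replicate 2 and 0 without M1 KD replicate 5. Falls numbered 1 in interferon-stimulated genes without M1 NS replicate 1 or M1 KD replicate 5 and 3 without M1 NS replicate 2, and 3 in GTPase genes without M1 KD replicate 5 and 2 without M1 KD replicate 6.

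Immediate early transcription factors changed steeply in either direction, 9 of 29 higher and 7 lower. Egr1, a zinc finger factor induced by growth factor and stress signals, was at 21.4, 17.7 and 11.9 CPM in M1 NS replicates 1, 2 and 4, and 0.382 and 0.624 CPM in M1 KD replicates 5 and 6 (log2 fold change -5.09, SE 0.40, adjusted p = 0.000619). Fosl1, the FOS-family member FRA1, was at 5.70, 6.07 and 4.60 CPM in M1 NS replicates 1, 2 and 4, and 0.191 and 0.156 CPM in M1 KD replicates 5 and 6 (log2 fold change -4.94, SE 0.41, adjusted p = 0.000620). Its relative Fosb was at 0.329, 0.604 and 0.216 CPM in M1 NS replicates 1, 2 and 4, and 20.3 and 18 CPM in M1 KD replicates 5 and 6, the other way (log2 fold change 5.68, SE 0.38, adjusted p = 0.000619). Fos was at 77.2, 66.1 and 72.7 CPM in M1 NS and 215 and 264 in M1 KD (log2 fold change 1.73, SE 0.20, adjusted p = 0.00128). Jun, its partner in the AP-1 dimer, was at 59.1, 68.5 and 71.4 CPM in M1 NS and 159 and 160.0 in M1 KD (log2 fold change 1.27, SE 0.19, adjusted p = 0.00309). Klf4, a Krüppel-like factor of monocyte differentiation, was at 29.4, 30.1 and 25.4 CPM in M1 NS and 90.5 and 84.5 in M1 KD (log2 fold change 1.63, SE 0.18, adjusted p = 0.00116). The groups were apart in each of these 6 genes; Fosb was below 1 CPM in all M1 NS libraries, and Egr1 and Fosl1 were below 1 CPM in both M1 KD libraries. Atf3 was at 692, 663 and 555 CPM in M1 NS and 761 and 1085 in M1 KD and was not called (adjusted p = 0.138). Of 18 genes that ERK signalling induces as feedback, 6 were lower and 3 higher, with a median of -0.71. Dusp6, the phosphatase that removes the activating phosphates of ERK, was at 18.1, 19.2 and 31.7 CPM in M1 NS and 3.25 and 5.49 in M1 KD (log2 fold change -2.40, SE 0.35, adjusted p = 0.00296). Etv5, an ETS factor downstream of ERK, was at 18.1, 20 and 16.3 CPM in M1 NS and 4.47 and 2.90 in M1 KD (log2 fold change -2.29, SE 0.27, adjusted p = 0.00148). Dusp8, a phosphatase that acts more on JNK and p38, was at 2.21, 2.05 and 1.13 CPM in M1 NS and 6.31 and 5.12 in M1 KD and rose (log2 fold change 1.67, SE 0.35, adjusted p = 0.0111), a call lost without M1 KD replicate 5 (0.0853). Left-out libraries moved the falls to 3 immediate early genes without M1 NS replicate 1 or M1 NS replicate 2 and 2 without M1 KD replicate 5, and 3 ERK feedback genes without M1 KD replicate 5. The ERK feedback rises became 1 without M1 NS replicate 1 or M1 KD replicate 6 and 0 without M1 KD replicate 5.

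Outside these pathways, the 12 largest falls and 12 largest rises among called genes that had an established symbol, separate groups and a mean log2 CPM of 3 or more were taken by rule. The falls ran from Fpr1 to Cstf2t. Marco, a scavenger receptor for bacteria and particles, was at 1610.3, 1833 and 2296 CPM in M1 NS replicates 1, 2 and 4, and 67.2 and 303 CPM in M1 KD replicates 5 and 6 (log2 fold change -3.37, SE 0.62, adjusted p = 0.00933). Rsrp1, which encodes a protein rich in arginine and serine, was at 331, 289 and 411 CPM in M1 NS and 25.6 and 51.3 in M1 KD (log2 fold change -3.16, SE 0.35, adjusted p = 0.00116). Kctd12, an auxiliary subunit of GABA-B receptors, was at 275, 212 and 287 CPM in M1 NS and 18.1 and 41 in M1 KD (log2 fold change -3.13, SE 0.37, adjusted p = 0.00152). Atp7a, the copper pump mutated in Menkes disease, was at 65.5, 55.1 and 86 CPM in M1 NS and 12.2 and 7.02 in M1 KD (log2 fold change -2.84, SE 0.31, adjusted p = 0.00116). Cstf2t, a single-exon relative of the 3' end cleavage factor CSTF2, was at 42.2, 35.5 and 40.2 CPM in M1 NS and 4.52 and 7.11 in M1 KD (log2 fold change -2.76, SE 0.26, adjusted p = 0.000800). Tmppe, a predicted transmembrane phosphoesterase, was at 17.1, 17.8 and 17.8 CPM in M1 NS and 2.17 and 2.87 in M1 KD (log2 fold change -2.80, SE 0.25, adjusted p = 0.000793). The guanine nucleotide exchange factor gene Spata13, the Notch ligand gene Jag1 and the sialic acid receptor gene Siglece completed the list with Fpr2 and Pik3cg, at -3.20, -2.91 and -2.78. In Spata13, Jag1 and Siglece, M1 NS replicate 4 stood above the other M1 NS libraries, at 115, 64.1 and 44.1 CPM beside 31.1 and 31.6, 15.1 and 15.9, and 16.2 and 19.4. Calls were lost for Marco without M1 NS replicate 4 (0.102), Spata13 without M1 KD replicate 5 (0.124) or M1 KD replicate 6 (0.11), Jag1 without M1 NS replicate 1 (0.0582), M1 KD replicate 5 (0.129) or M1 KD replicate 6 (0.196) and Siglece without M1 KD replicate 5 (0.0604), and those of Spata13 and Jag1 also with no filter on low counts (0.177 and 0.293).

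The rises were led by Aph1c, a subunit of gamma-secretase, at 3.12, 2.92 and 4.86 CPM in M1 NS replicates 1, 2 and 4, and 51.4 and 31.2 CPM in M1 KD replicates 5 and 6 (log2 fold change 3.50, SE 0.30, adjusted p = 0.000692). Atp6v0d2, a vacuolar proton pump subunit typical of macrophages and osteoclasts, was at 11.1, 9.69 and 10.6 CPM in M1 NS replicates 1, 2 and 4, and 139 and 82.9 CPM in M1 KD replicates 5 and 6 (log2 fold change 3.41, SE 0.24, adjusted p = 0.000619). Gdf15, a stress-induced cytokine, was at 13.8, 21.3 and 16.4 CPM in M1 NS and 231 and 75.6 in M1 KD (log2 fold change 3.16, SE 0.43, adjusted p = 0.00336). Rragd, a Rag GTPase that ties amino acids to mTORC1 at the lysosome, was at 3.61, 2.92 and 4.0 CPM in M1 NS and 41.8 and 20.6 in M1 KD (log2 fold change 3.15, SE 0.32, adjusted p = 0.000928). Gpnmb, a glycoprotein of melanosomes and lysosomes, was the most abundant of them, at 1966, 2156 and 1931 CPM in M1 NS replicates 1, 2 and 4, and 18937 and 8893 CPM in M1 KD replicates 5 and 6 (log2 fold change 2.79, SE 0.32, adjusted p = 0.00129). Trem2, a lipid-sensing receptor, was at 66, 89.7 and 40.1 CPM in M1 NS and 715 and 341 in M1 KD (log2 fold change 3.02, SE 0.40, adjusted p = 0.00224). Fabp5, a fatty acid-binding protein, was at 39.8, 46.2 and 71 CPM in M1 NS and 529 and 296 in M1 KD (log2 fold change 2.98, SE 0.33, adjusted p = 0.00116). Mrc1, the mannose receptor that serves as a marker of alternative activation, was at 9.27, 7.18 and 4.12 CPM in M1 NS and 59.8 and 42.2 in M1 KD (log2 fold change 2.89, SE 0.32, adjusted p = 0.00122). Igf1, an insulin-like growth factor, was at 18.8, 21.4 and 25.6 CPM in M1 NS and 198 and 90.9 in M1 KD (log2 fold change 2.72, SE 0.31, adjusted p = 0.00128). Syngr1 and the class I gene H2-K2 rose by 2.87 and 2.73. M1 KD replicate 5 was above replicate 6 in all 12 rises. The rule took only genes with separate groups, so M1 KD had to lie above M1 NS in each. The call of Gdf15 was lost without M1 NS replicate 4 (0.0602).

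**Figure D3:**
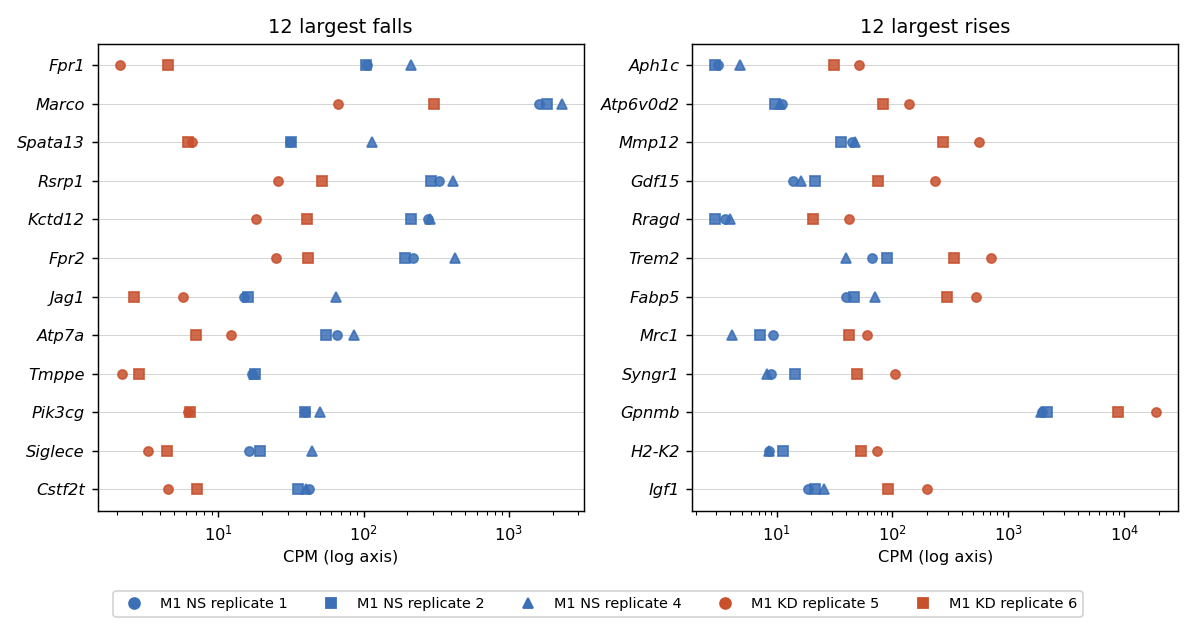
CPM on a log axis (horizontal) is plotted in each of the 5 libraries for the 12 genes with the largest falls (left) and the 12 with the largest rises (right) chosen by rule. Blue marks are M1 NS and orange marks M1 KD; Fpr1 lies at 104 to 212 CPM in M1 NS and at 2.10 and 4.49 in M1 KD, and Aph1c at 2.92 to 4.86 and at 51.4 and 31.2.

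Lysosomes break down cargo with acid hydrolases, a proton pump keeps them acid, and the transcription factors TFEB, TFE3 and MITF activate many of their genes through CLEAR elements, promoter motifs around the core TCACGTG. Of 19 tested cathepsins and lysosomal proteases, 13 rose and none fell, with a median of 1.14. Ctsd, an aspartic protease, was at 1263, 1398 and 1658 CPM in M1 NS replicates 1, 2 and 4, and 5542 and 3481 CPM in M1 KD replicates 5 and 6 (log2 fold change 1.65, SE 0.27, adjusted p = 0.00415). Ctsl, a cysteine protease, was at 118, 119 and 165 CPM in M1 NS and 963 and 345 in M1 KD (log2 fold change 2.28, SE 0.39, adjusted p = 0.00570). Of 39 hydrolases and activators 17 rose and 1 fell (median 0.74). Hexa, the alpha chain of hexosaminidase A, was at 213, 237 and 215 CPM in M1 NS and 792 and 582 in M1 KD (log2 fold change 1.63, SE 0.22, adjusted p = 0.00227). Naglu, which cleaves heparan sulfate, was at 42, 52.5 and 45.8 CPM in M1 NS and 161 and 117 in M1 KD (log2 fold change 1.57, SE 0.21, adjusted p = 0.00215). Of 35 lysosomal membrane proteins 11 rose and 2 fell, with the macrophage marker Cd68 at 318, 350.2 and 246 CPM in M1 NS and 1757 and 1328 in M1 KD (log2 fold change 2.34, SE 0.25, adjusted p = 0.00108). Lamp2, a main membrane glycoprotein, was at 865, 626 and 957 CPM in M1 NS and 809 and 959 in M1 KD and not called (adjusted p = 0.768). Of 18 subunits of the proton pump 5 rose, Atp6v1d at 114, 97.6 and 108 CPM in M1 NS and 243 and 264 in M1 KD (log2 fold change 1.25, SE 0.20, adjusted p = 0.00366) beside Atp6v0d2. In Ctsd, Ctsl, Hexa, Naglu, Cd68 and Atp6v1d every M1 KD library was above every M1 NS library. With 1 library left out, rises counted 5 cathepsins without M1 NS replicate 1 and 2 without M1 KD replicate 5, 8 hydrolases without M1 NS replicate 1 and 5 without M1 KD replicate 5, 6 membrane proteins without M1 NS replicate 1, 3 without M1 KD replicate 5 and 7 without M1 KD replicate 6, and 2 pump subunits without M1 NS replicate 1 or M1 KD replicate 5.

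The TFEB family itself was not called: Tfeb was at 15.7, 20.3 and 16.3 CPM in M1 NS and 33.8 and 21.8 in M1 KD (adjusted p = 0.0693). Tfe3 was at 119, 132 and 97.1 CPM in M1 NS and 94.4 and 83.2 in M1 KD (adjusted p = 0.211). Mitf was at 85.6, 74.6 and 89.2 CPM in M1 NS and 83.5 and 64.3 in M1 KD (adjusted p = 0.570). In the list of this family and of autophagy genes 11 of 47 rose and 1 fell. Optn, an autophagy receptor, was at 24.9, 24.9 and 17.5 CPM in M1 NS and 72.9 and 70 in M1 KD (log2 fold change 1.67, SE 0.21, adjusted p = 0.00164). Sqstm1, the receptor p62, was at 1796, 2204 and 1877 CPM in M1 NS and 5707 and 3185 in M1 KD (log2 fold change 1.18, SE 0.28, adjusted p = 0.0188). The Sqstm1 call was lost without M1 NS replicate 1 (0.0732) or M1 KD replicate 5 (0.179), and the list count higher was 17 without M1 NS replicate 4 and 5 without M1 KD replicate 5. To show what these promoters hold, the core TCACGTG was searched on both strands from 250 bases before to 50 after the start of each gene in RefSeq's promoter table (GRCm38.p6). It is part of the plain E-box CACGTG. Of 85 tested genes of the 4 lysosomal lists with a promoter in the table, 21 (24.7%) held it, and of the 37 called higher 12 (32.4%). Of 9651 tested genes with a promoter, 6.94% held it, and of all 27025 promoters 4.29%. Of all genes called higher 7.23% held it, and of all called lower 7.49%. Of the 3 lysosomal genes called lower with a promoter, 1 held it. Most lysosomal genes called higher lacked it in this window. A match describes the letters and is not a measured binding site.

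For 6 lysosomal genes called higher, 30 bases around the core are printed 5' to 3' on the gene's strand, with the core on either strand in capitals. They were chosen for the match, so their likeness at the core is given by the choice. The other genes of the 12 that held the core, Atp6v0b and Lamp1 among them, are not printed. Coordinates are those of the printed bases. Naglu lies at chr11:101070008-101070037 (plus strand), Ctsd at chr7:142387908-142387937 (minus), Mcoln1 at chr8:3500462-3500491 (plus), Glb1 at chr9:114401017-114401046 (plus), Gla at chrX:134601182-134601211 (minus) and Dpp7 at chr2:25356388-25356417 (minus).
Naglu: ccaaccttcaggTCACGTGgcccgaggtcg
Ctsd: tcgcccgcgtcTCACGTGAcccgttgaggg
Mcoln1: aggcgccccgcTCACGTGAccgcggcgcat
Glb1: gctgcttctgagTCACGTGgcctacagagg
Gla: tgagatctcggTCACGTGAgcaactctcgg
Dpp7: ccgccagactaTCACGTGAtgctgccccgc
In 4 of the 6 the core read the same on both strands, as TCACGTGA. The printed core began between 46 and 195 bases before the start site. Gla, Ctsd and Mcoln1 each held a further match in the same window. In Mcoln1, a calcium channel of the lysosomal membrane, in Glb1, the beta-galactosidase, and in Gla, the alpha-galactosidase, the rises were 1.15, 1.02 and 1.35 on the log2 scale, beside 1.57 for Naglu and 1.65 for Ctsd. Dpp7, a dipeptidyl peptidase, rose by 1.15. The Glb1 call was lost without M1 KD replicate 5 (0.0813), and that of Dpp7 without M1 NS replicate 1 (0.0684) or M1 KD replicate 5 (0.194).

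Lipid uptake and lipid-associated macrophage genes rose in 17 of 37 tested and fell in 5, with a median of 0.60. Lgals3, the lectin galectin 3, was at 659.7, 732 and 662 CPM in M1 NS and 4673 and 2628 in M1 KD (log2 fold change 2.41, SE 0.28, adjusted p = 0.00128). Lpl, lipoprotein lipase, was at 348, 269.7 and 232 CPM in M1 NS and 1352 and 882 in M1 KD (log2 fold change 1.98, SE 0.27, adjusted p = 0.00234). Mgll, which splits monoacylglycerols, was at 1.78, 2.88 and 2.76 CPM in M1 NS and 28.9 and 24.7 in M1 KD (log2 fold change 3.44, SE 0.27, adjusted p = 0.000619). Groups were apart in these 3 genes, with M1 KD replicate 5 the highest library. Lrp1, an endocytic receptor for lipoproteins, was at 366, 427 and 683 CPM in M1 NS and 184 and 79.1 in M1 KD and fell (log2 fold change -1.90, SE 0.41, adjusted p = 0.0135). Acsl1, an acyl-CoA synthetase, was at 1095, 1101 and 1797 CPM in M1 NS and 679.7 and 469 in M1 KD and fell too (log2 fold change -1.21, SE 0.31, adjusted p = 0.0233). Of 17 scavenger receptors 5 rose, Mrc1 and Cd68 among them, and 3 fell, Marco and Stab1, at 126, 144 and 242 CPM in M1 NS and 54.3 and 47 in M1 KD (log2 fold change -1.75, SE 0.31, adjusted p = 0.00559), among them. Cd36, a fatty acid and oxidized lipid receptor, was at 217, 167 and 501 CPM in M1 NS and 583 and 339 in M1 KD, with overlapping groups (adjusted p = 0.339). Msr1 was at 321, 262 and 517 CPM in M1 NS and 371 and 229 in M1 KD (adjusted p = 0.555). Of 25 genes for the uptake of dying cells 5 were higher and 5 lower, with Mfge8, a protein that bridges dying cells to phagocytes, at 41.2, 51.5 and 38.4 CPM in M1 NS and 197 and 136 in M1 KD (log2 fold change 1.93, SE 0.23, adjusted p = 0.00144). Gas6, the ligand of the receptor MERTK, was at 11.9, 12.3 and 8.39 CPM in M1 NS and 38.4 and 32.3 in M1 KD (log2 fold change 1.71, SE 0.23, adjusted p = 0.00213). Mertk was at 517, 468 and 451 CPM in M1 NS and 356 and 617 in M1 KD and was not called (adjusted p = 0.960). Single libraries moved the lipid counts to 10 higher without M1 KD replicate 5, and 3 lower without M1 NS replicate 1, 2 without M1 KD replicate 5 and 1 without M1 KD replicate 6. Scavenger receptor rises became 2 without M1 NS replicate 1, M1 KD replicate 5 or M1 KD replicate 6. Counts for the uptake of dying cells became 3 higher without M1 KD replicate 5, and 2 lower without M1 NS replicate 1 or M1 KD replicate 6 and 3 without M1 KD replicate 5. Calls were lost for Lrp1 without M1 KD replicate 6 (0.0617), Acsl1 without M1 KD replicate 5 (0.0625) or M1 KD replicate 6 (0.14) and Marco without M1 NS replicate 4 (0.102).

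In the list of cholesterol synthesis and SREBP2 targets 5 of 26 were higher and 4 lower. Of 19 LXR targets and efflux genes 2 were higher and 2 lower, near the 11.5% and 11.4% of all genes. Abcg1, an exporter of cholesterol to HDL, was at 208, 213 and 119 CPM in M1 NS and 322 and 446 in M1 KD (log2 fold change 1.09, SE 0.29, adjusted p = 0.0268). Nr1h3, which encodes LXR-alpha, was at 88.3, 104 and 79.3 CPM in M1 NS and 55 and 71.4 in M1 KD (adjusted p = 0.107). The call of Abcg1 was lost without M1 NS replicate 1 (0.0503), M1 KD replicate 5 (0.0622) or M1 KD replicate 6 (0.164). For synthesis genes the counts became 1 higher without M1 NS replicate 1, 2 without M1 NS replicate 2 or M1 KD replicate 6 and 0 without M1 KD replicate 5, and 2 lower without M1 NS replicate 1 or M1 NS replicate 2 and 0 without M1 KD replicate 5 or M1 KD replicate 6.

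Paired receptors hold back or set off myeloid cells. Of 28 C-type lectins and paired receptors, 10 fell and 5 rose. Cd300lb, an activating receptor, was at 19.1, 19.4 and 17.5 CPM in M1 NS and 4.59 and 3.71 in M1 KD (log2 fold change -2.16, SE 0.24, adjusted p = 0.00116). Cd200r1, an inhibitory receptor, was at 22.1, 16.2 and 21.3 CPM in M1 NS and 57.5 and 56.2 in M1 KD (log2 fold change 1.52, SE 0.20, adjusted p = 0.00205). Treml4, a receptor for dying cells, was at 9.15, 11.2 and 19.1 CPM in M1 NS and 2.75 and 2.53 in M1 KD (log2 fold change -2.32, SE 0.36, adjusted p = 0.00351), against the rise of Trem2 above. Among 11 Fc receptor genes 3 rose and 2 fell, Fcgr1, the high-affinity IgG receptor, at 718, 673 and 548 CPM in M1 NS and 1457 and 1572 in M1 KD (log2 fold change 1.23, SE 0.22, adjusted p = 0.00666). Inpp5d, which encodes the inhibitory phosphatase SHIP1, was at 196, 216 and 175 CPM in M1 NS and 77.4 and 54.7 in M1 KD (log2 fold change -1.57, SE 0.24, adjusted p = 0.00333). Groups did not overlap in these 5 genes. The Fc receptor rises became 1 without M1 KD replicate 6. Lectin and paired receptor counts became 2 lower without M1 KD replicate 5, and 2 higher without M1 NS replicate 1 or M1 KD replicate 5 and 3 without M1 NS replicate 2 or M1 KD replicate 6.

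Stress genes of the ATF4 branch rose in 12 of 30 and fell in 1, with a median of 0.56. Ddit3, which encodes the factor CHOP, was at 68.7, 82.7 and 55.6 CPM in M1 NS and 414 and 267 in M1 KD (log2 fold change 2.30, SE 0.26, adjusted p = 0.00123). Trib3, a pseudokinase that CHOP and ATF4 induce, was at 16.7, 17.1 and 21.5 CPM in M1 NS and 74.8 and 67.2 in M1 KD (log2 fold change 1.94, SE 0.19, adjusted p = 0.000928). Asns, asparagine synthetase, was at 28.8, 27.8 and 34.4 CPM in M1 NS and 77.7 and 60.2 in M1 KD (log2 fold change 1.19, SE 0.20, adjusted p = 0.00450). Atf4 itself was at 293, 311 and 239 CPM in M1 NS and 329.9 and 427 in M1 KD, with a log2 fold change of 0.43 (adjusted p = 0.198). Of chaperones of the endoplasmic reticulum and genes of its stress response, 5 of 27 were lower and none higher (median -0.36). Hyou1, a reticulum chaperone, was at 222, 249 and 235 CPM in M1 NS and 104 and 102 in M1 KD (log2 fold change -1.19, SE 0.20, adjusted p = 0.00501). Hspa5, the chaperone BiP, was at 1483, 1419.9 and 1223 CPM in M1 NS and 926 and 1089 in M1 KD and was not called (adjusted p = 0.183). In the p53 and BCL2 list 7 of 30 rose and 4 fell. Bbc3, which encodes the death-promoting protein PUMA, was at 15.4, 19.1 and 15.9 CPM in M1 NS and 63.8 and 59 in M1 KD (log2 fold change 1.87, SE 0.19, adjusted p = 0.000928). The death receptor gene Fas was at 27.5, 25.1 and 39.5 CPM in M1 NS and 98.9 and 85.8 in M1 KD (log2 fold change 1.59, SE 0.23, adjusted p = 0.00281). The p53 target Cdkn1a was at 703, 829 and 1059.7 CPM in M1 NS and 828 and 842 in M1 KD and was not called (adjusted p = 0.901). Single libraries moved the counts to 7 ATF4 genes higher without M1 NS replicate 1 and 6 without M1 KD replicate 5, 2 reticulum genes lower without M1 NS replicate 1 or M1 NS replicate 2, 1 without M1 KD replicate 5 and 3 without M1 KD replicate 6, 3 p53 list genes higher without M1 NS replicate 1 or M1 KD replicate 5 and 4 without M1 KD replicate 6, and 2 lower without M1 NS replicate 1 and 1 without M1 KD replicate 5. The Asns call was lost without M1 KD replicate 5 (0.0536).

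Ribosomal protein genes rose in 40 of 82 and fell in none, by a median of 0.77 against 0.02 for all genes. Rpl17 was at 175, 179.8 and 176 CPM in M1 NS and 466 and 320.3 in M1 KD (log2 fold change 1.15, SE 0.22, adjusted p = 0.00825). Rpl3 was at 273, 317 and 211 CPM in M1 NS and 375 and 376 in M1 KD and not called (adjusted p = 0.155). Without M1 KD replicate 5 the median was 0.48, and the count higher was 3 without M1 NS replicate 1 and 1 without M1 KD replicate 5. The Rpl17 call was lost without M1 KD replicate 5 (0.0858). The next 3 lists had smaller shares called than all genes, in either direction. Of 39 translation factors 2 rose and 3 fell. Of 75 mitochondrial ribosomal proteins 6 rose and 3 fell, and of 77 nuclear encoded respiratory chain genes 3 and 1. With 1 library left out, rises became 0 in mitochondrial ribosomal genes without M1 NS replicate 1, M1 KD replicate 5 or M1 KD replicate 6, and 0 in respiratory chain genes without M1 NS replicate 1 or M1 KD replicate 5, 6 without M1 NS replicate 2 and 1 without M1 KD replicate 6. Falls became 1 in mitochondrial ribosomal genes without M1 NS replicate 1, M1 NS replicate 2 or M1 KD replicate 6, 5 without M1 NS replicate 4 and 0 without M1 KD replicate 5, and 1 in translation factors without M1 NS replicate 1, M1 KD replicate 5 or M1 KD replicate 6. Library-size scaling left 1 rise in each of the mitochondrial ribosomal and respiratory chain lists. Eif2s3x, a subunit of the initiation factor eIF2, was at 52.3, 49.5 and 59.4 CPM in M1 NS and 24.9 and 17.6 in M1 KD (log2 fold change -1.33, SE 0.22, adjusted p = 0.00419). Ribosomal protein genes have many pseudogenes, and how shared reads were counted was given by no source used here.

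Of 44 mitosis and kinetochore genes 13 rose and none fell, with a median of 0.94. Spc25, a subunit of the NDC80 kinetochore complex, was at 0.962, 0.704 and 0.886 CPM in M1 NS replicates 1, 2 and 4, and 13.6 and 13.3 CPM in M1 KD replicates 5 and 6 (log2 fold change 3.97, SE 0.27, adjusted p = 0.000619). Cenpa, the centromeric histone, was at 2.07, 1.58 and 2.73 CPM in M1 NS and 13.6 and 7.68 in M1 KD (log2 fold change 2.32, SE 0.34, adjusted p = 0.00296). Mki67, the proliferation marker, was at 14.2, 11.5 and 12.5 CPM in M1 NS and 20.3 and 12.1 in M1 KD and was not called (adjusted p = 0.357). The cyclin gene Ccnb1 was not called either, at 0.798, 0.704 and 0.359 CPM in M1 NS and 1.62 and 1.44 in M1 KD (adjusted p = 0.0724). Of 46 replication genes 10 rose and 1 fell. Rfc2, a subunit of the clamp loader, was at 35.5, 40.9 and 26.9 CPM in M1 NS and 74.8 and 105 in M1 KD (log2 fold change 1.39, SE 0.23, adjusted p = 0.00487). Rfc3, another subunit, was at 17.1, 14.6 and 11.2 CPM in M1 NS and 30.6 and 41.7 in M1 KD (log2 fold change 1.34, SE 0.24, adjusted p = 0.00599). Pcna, the clamp itself, was at 306, 327 and 211 CPM in M1 NS and 309 and 274 in M1 KD (adjusted p = 0.893). With 1 library left out, the test called 7 mitosis genes higher without M1 NS replicate 1, 6 without M1 NS replicate 2 or M1 KD replicate 5 and 4 without M1 KD replicate 6, and 4 replication genes higher without M1 NS replicate 1, 3 without M1 KD replicate 5 and 5 without M1 KD replicate 6.

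In metabolism, 5 of 34 glycolysis and hypoxia genes fell and 2 rose (median -0.31). Hif1a, the hypoxia factor, was at 1053, 779 and 1058 CPM in M1 NS and 315 and 547 in M1 KD (log2 fold change -1.16, SE 0.30, adjusted p = 0.0236), while its target Vegfa rose as given above. Ldha, lactate dehydrogenase, was at 854, 989.5 and 1183 CPM in M1 NS and 1441 and 1131 in M1 KD and was not called (adjusted p = 0.322). Got1, the cytosolic aspartate aminotransferase, was at 125, 143 and 91.5 CPM in M1 NS and 336 and 463 in M1 KD (log2 fold change 1.74, SE 0.25, adjusted p = 0.00296), 1 of 4 higher and 2 lower among 31 itaconate, TCA cycle and arginine genes. The arginine transporter gene Slc7a2 was at 1099, 964 and 1651 CPM in M1 NS and 439.6 and 452 in M1 KD and fell (log2 fold change -1.47, SE 0.29, adjusted p = 0.00823). Of 29 NRF2 antioxidant genes 3 rose and 3 fell, with Hmox1, heme oxygenase 1, at 2403, 2743 and 3808 CPM in M1 NS and 2032 and 1215 in M1 KD (adjusted p = 0.0707). Ftl1, the ferritin light chain, was at 5279, 5842 and 6075 CPM in M1 NS and 14294 and 10926 in M1 KD (log2 fold change 1.14, SE 0.24, adjusted p = 0.0110). Slc30a1, a zinc exporter, was at 163, 133 and 162 CPM in M1 NS and 491 and 590.0 in M1 KD (log2 fold change 1.82, SE 0.22, adjusted p = 0.00144). Calls were lost for Hif1a without M1 NS replicate 1 (0.0678) or M1 KD replicate 5 (0.162), Slc7a2 without M1 KD replicate 5 (0.0665) and Ftl1 without M1 NS replicate 1 (0.0637) or M1 KD replicate 5 (0.0858). The count of glycolysis genes lower was 1 without M1 NS replicate 1 or M1 KD replicate 6, 2 without M1 NS replicate 2 and 0 without M1 KD replicate 5. Itaconate list counts became 2 higher without M1 NS replicate 1 and 1 without M1 KD replicate 5, and 1 lower without M1 NS replicate 1, M1 NS replicate 2 or M1 KD replicate 6, 6 without M1 NS replicate 4 and 0 without M1 KD replicate 5, with 5 lower under library-size scaling. NRF2 list shares were near those of all genes, and the counts became 0 higher without M1 NS replicate 1 or M1 KD replicate 5, 1 without M1 NS replicate 2 or M1 KD replicate 6 and 6 without M1 NS replicate 4, and 1 lower without M1 KD replicate 5 or M1 KD replicate 6.

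Chromatin and signalling genes were read in the same way. No gene of the WDR5 and MLL methyltransferase complexes rose and 5 of 18 fell. Wdr5, the scaffold of these complexes, was at 26.8, 27.4 and 28.5 CPM in M1 NS and 24.6 and 25.1 in M1 KD, and was not called (log2 fold change -0.15, SE 0.18, adjusted p = 0.570). Hcfc1, a cofactor, was at 128, 140.3 and 114 CPM in M1 NS and 44.6 and 48.4 in M1 KD (log2 fold change -1.45, SE 0.20, adjusted p = 0.00239). Among SWI/SNF, Polycomb and acetylation genes 2 of 33 rose and 5 fell; Hdac5, a histone deacetylase, was at 25.4, 31.4 and 36.2 CPM in M1 NS and 115 and 131 in M1 KD (log2 fold change 1.99, SE 0.21, adjusted p = 0.000980). In the gamma-secretase and Notch list 5 of 24 rose, Aph1c among them, and 4 fell. Rbpj, the DNA-binding factor of Notch signalling, was at 193, 143 and 211 CPM in M1 NS and 77.3 and 58.8 in M1 KD (log2 fold change -1.42, SE 0.25, adjusted p = 0.00569). Aph1a, a paralog of Aph1c, was at 76.1, 91 and 69.3 CPM in M1 NS and 70.9 and 61.1 in M1 KD and was not called (adjusted p = 0.381). In the Wnt list 5 of 25 rose and 3 fell, beside 11.5% and 11.4% of all genes. Fzd1, a Wnt receptor, was at 115, 133 and 107 CPM in M1 NS and 18.5 and 27.6 in M1 KD (log2 fold change -2.36, SE 0.25, adjusted p = 0.00100). Frat2, an inhibitor of the kinase GSK3, was at 0.422, 0.235 and 0.431 CPM in M1 NS and 4.37 and 3.74 in M1 KD (log2 fold change 3.45, SE 0.40, adjusted p = 0.00128). Leaving out single libraries gave 2 WDR5 and MLL genes lower without M1 NS replicate 1, 3 without M1 NS replicate 2 and 1 without M1 KD replicate 5 or M1 KD replicate 6, 0 SWI/SNF list genes lower without M1 KD replicate 5 and 1 without M1 KD replicate 6, 2 Notch list genes higher without M1 NS replicate 1, 1 without M1 KD replicate 5 and 3 without M1 KD replicate 6, and 3 Wnt list genes higher without M1 NS replicate 1, M1 NS replicate 2, M1 KD replicate 5 or M1 KD replicate 6. It also gave 2 Notch list genes lower without M1 KD replicate 5 or M1 KD replicate 6, and 1 Wnt list gene lower without M1 KD replicate 5.

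**Figure D4:**
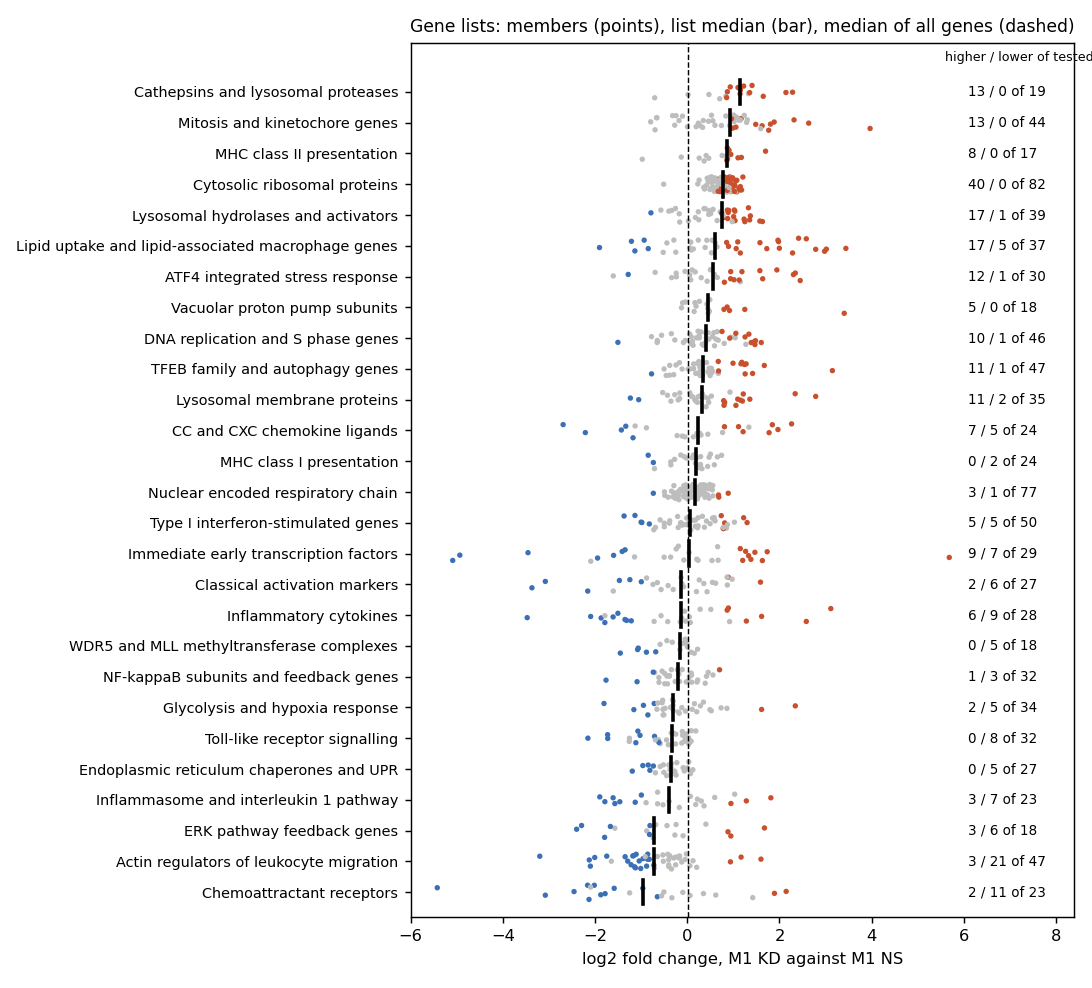
The log2 fold change of M1 KD against M1 NS (horizontal) is plotted for the tested members of 27 of the 65 lists (points; orange called higher, blue called lower, grey not called), with the list median as a bar and the median of all genes tested, 0.02, as a dashed line. Numbers at the right count members higher and lower of those tested. Cathepsins lie highest, at a median of 1.14, and chemoattractant receptors lowest, at -0.965.

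Of 30 macrophage identity genes 9 were higher and 6 lower. These counts became 4 higher without M1 NS replicate 1 or M1 KD replicate 5, and 2 lower without M1 NS replicate 1 or M1 NS replicate 2 and 1 without M1 KD replicate 5. Maf, a factor of resident macrophages, was at 299, 237 and 225 CPM in M1 NS and 28.5 and 64.1 in M1 KD (log2 fold change -2.45, SE 0.36, adjusted p = 0.00296). Cebpb, a factor of inflammatory macrophages, was at 122, 141 and 112 CPM in M1 NS and 488 and 436 in M1 KD (log2 fold change 1.89, SE 0.21, adjusted p = 0.00116). Spi1, which encodes PU.1, was at 520.4, 644 and 338 CPM in M1 NS and 628 and 623 in M1 KD and was not called (adjusted p = 0.436). Of 20 alternative activation markers 3 rose and 2 fell, beside 11.5% and 11.4% of all genes. The rises were Mrc1, Klf4 and Folr2, a folate receptor, and the falls Stab1 and Egr2. Folr2 was at 2.49, 4.19 and 3.33 CPM in M1 NS and 33.6 and 11.7 in M1 KD (log2 fold change 2.77, SE 0.42, adjusted p = 0.00367). Arg1, arginase 1, was at 0.352, 0.235 and 1.89 CPM in M1 NS and 0.0956 and 0.125 in M1 KD (adjusted p = 0.0713). The Egr2 call, at -1.60, was lost without M1 NS replicate 1 (0.0806), M1 NS replicate 2 (0.0874), M1 NS replicate 4 (0.0542), M1 KD replicate 5 (0.138) or M1 KD replicate 6 (0.158) and with upper-quartile scaling or limma-voom.

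Markers of other cells were summed over whole lists. Of 22 neutrophil and precursor markers 17 were tested, with 2 higher and 2 lower, near the 11.5% and 11.4% of all genes. The 22 markers summed to 306 to 388 CPM in M1 NS and 344 to 364 in M1 KD. S100a8, a calcium-binding protein of neutrophils, was at 34.8, 31.7 and 23 CPM in M1 NS and 4.16 and 12.2 in M1 KD (log2 fold change -1.87, SE 0.43, adjusted p = 0.0176), a call lost without M1 NS replicate 2 (0.0552) or M1 KD replicate 5 (0.0539). Ngp, a granule protein gene, was at 32.9, 29.3 and 15.4 CPM in M1 NS and 4.09 and 19.3 in M1 KD and was not called (adjusted p = 0.239). Prtn3 had the largest rise of the list (log2 fold change 2.87, adjusted p = 0.00663), at 2.57 to 3.03 under the alternative settings. Its call was lost without M1 KD replicate 5. Of 14 T cell markers 7 were tested and 4 rose (2 without M1 KD replicate 5), and their sum was 50.8 to 70.2 CPM in M1 NS and 126 to 205 in M1 KD. Most of that sum was Il7r, at 58.6, 44.6 and 67.8 CPM in M1 NS and 189 and 109 in M1 KD, with Cd3e, Cd3d and Cd3g near 0 as given above. Cd4 was at 1.20, 1.74 and 0.863 CPM in M1 NS and 5.76 and 5.77 in M1 KD (log2 fold change 2.19, SE 0.35, adjusted p = 0.00398). The kinase gene Lck was at 0.962, 1.81 and 0.743 CPM in M1 NS and 6.88 and 5.90 in M1 KD (log2 fold change 2.46, SE 0.39, adjusted p = 0.00394). Erythroid and megakaryocyte markers summed to 24.6 to 65.2 CPM in M1 NS and to 134 to 140 in M1 KD, with Pf4 the largest part, and the haemoglobin gene Hbb-bs at 5.33, 6.14 and 2.11 CPM in M1 NS and 6.76 and 15.5 in M1 KD (adjusted p = 0.0797). The NK cell list summed to 17.7 to 29.4 CPM in M1 NS and to 44.2 to 60.8 in M1 KD. Only 3 of its 10 markers were tested. Of these 1 was called higher and 2 had a log2 fold change below 0, with a median of -0.36, so the sum does not speak for the list as a whole. Fibroblast, stromal and endothelial markers summed to 76.0 to 173 and to 180.0 to 206 CPM, with 1 of 12 tested called higher, beside 11.5% of all genes. In the sums of both lists, as in those of the T cell and erythroid lists, every M1 KD library was above every M1 NS library. Mast cell, basophil and eosinophil markers went the other way, at 73.4 to 93.9 CPM in M1 NS and 48.9 to 69.1 in M1 KD. Dendritic cell marker sums overlapped, at 817 to 1340 and 1320 to 1910 CPM. Sums of the B cell list stayed at or below 16.3 CPM. Their part in the results was not tested. The Il7r call was lost without M1 KD replicate 5 (0.0869) and that of Pf4 without M1 KD replicate 5 (0.0608).

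Changes also went with the build of the genes, read from GENCODE M21 models that 98.3% of tested genes had. Among 12033 protein coding genes the median log2 fold change was -0.69 for the 223 with a single exon, of which 69 were lower (30.9%) and 10 higher (4.48%). It was -0.36 for the 422 with 2 exons, 0.18 for the 3751 with 6 to 10, and -0.29 for the 1667 with over 20, of which 370 were lower (22.2%) and 103 higher (6.18%). Summed exon length went the same way as high exon number, with a median of 0.26 in the shortest of 5 equal classes and -0.24 in the longest. By GC content the medians rose from -0.13 in the lowest of 5 classes to 0.22 in the highest. All 3 M1 NS libraries had single-exon genes above their 5-library mean, at 0.33, 0.37 and 0.22, and both M1 KD libraries below it, at -0.49 and -0.27. In M0 cells the same class had a median effect of -0.10. Fpr1 has 2 exons in these models, Cstf2t 1 and Kctd12 2, whereas single-exon Jun and Cebpb rose as given above, which shows both directions among genes with few exons. With a smooth trend in length and GC removed from each library, 1889 genes were higher and 1864 lower. The part of RNA quality or library preparation in this pattern was not tested.

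**Figure D5:**
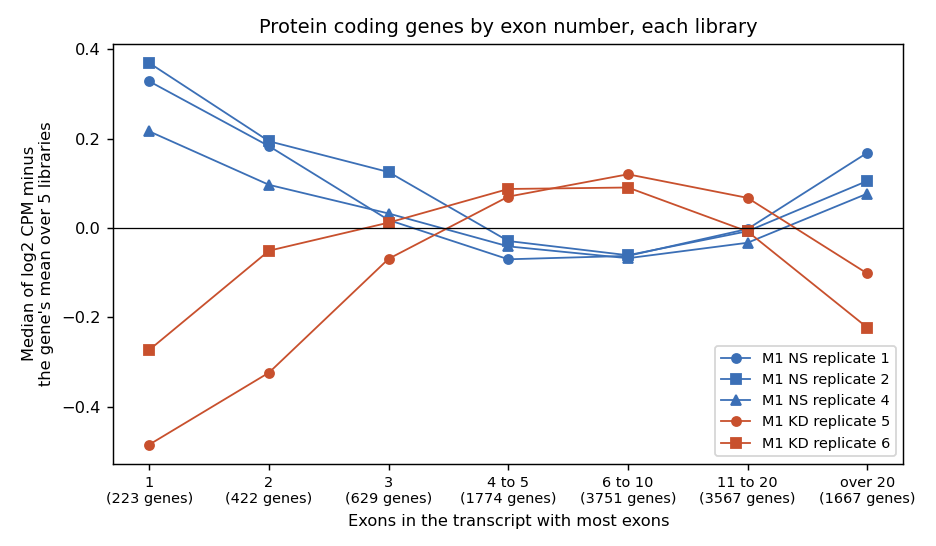
The median over protein coding genes of log2 CPM minus the gene's mean over the 5 libraries (vertical) is plotted by the number of exons in the transcript with most exons (horizontal), a line for each library, blue for M1 NS and orange for M1 KD. Single-exon genes lie at 0.22 to 0.37 in M1 NS and at -0.49 and -0.27 in M1 KD.

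Whether the change with the gapmer was alike in M0 and M1 cells was tested as a difference of effects over all 11 libraries. The M1 KD replicate numbers occur in no other group. Anything that goes with them enters this difference and cannot be told apart from the gapmer. That difference passed the test in 4095 of 15024 genes (27.3%), 1965 with the higher and 2130 with the lower effect in M1. Ccl3 was at 25.5, 27.1 and 25.8 CPM in M0 NS and at 33.0, 27.6 and 40.6 in M0 KD, and the difference of its effects was -2.61 on the log2 scale (SE 0.44, adjusted p = 0.00151). In M0 NS, Ccl4 was at 12.1, 13.3 and 12.6 CPM, and in M0 KD at 15, 15.7 and 19.3, with a difference of -3.12 (SE 0.61, adjusted p = 0.00344). Both genes were lower in all M0 libraries than in the M1 NS libraries. In both genes every M0 KD library was above every M0 NS library. The M0 effects of Ccl3 and Ccl4, 0.37 and 0.39, were not called in edgeR's fit over the 11 libraries (adjusted p = 0.565 and 0.658). For the M0 effect, edgeR's quasi-likelihood test called 0 genes over the 11 libraries, with 1947 at an unadjusted p under 0.05, and DESeq2 called 221. With the 6 M0 libraries alone edgeR called 1103 of 13683. The M0 and M1 effects use separate controls but a shared estimate of spread.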

How the data were processed

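RNA of mouse bone marrow derived macrophages was sequenced in 11 libraries. The authors deposited raw counts of reads per gene, made on GRCm38 with featureCounts (Subread 1.5.2) after STAR 2.5.2b and Trimmomatic 0.36, per the submitters' processing notes; the strand setting and the treatment of reads shared by similar genes were given by no source used here. An entry with no gene name held 9.65e-05% to 0.000287% of counts of the M1 libraries and was left out. The 5 M1 libraries had totals of 30040632 to 43250392.

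Libraries were grouped by their labels. Genes with enough counts (edgeR's filterByExpr, minimum count 10, minimum total 15) were fitted with edgeR 4.0.16 in R 4.3.3 on these 5 libraries alone, with TMM scaling and the robust quasi-likelihood test, and p-values were adjusted over all genes tested by Benjamini-Hochberg with a threshold of 0.05. The SE is the absolute log2 fold change divided by the square root of F. CPM values use TMM factors. The difference between the M1 and M0 effects was an interaction contrast over 11 libraries. The fit was tested on simulated data.

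Genes named in the text were Ccl3 and Ccl4, the 12 largest rises and 12 largest falls defined in the text, tested genes within 500 kb, and in each of 65 gene lists a fixed set of anchor genes and up to 2 called members of each direction with the smallest p. Members that explain a count of 5 or fewer were named too, and a few genes were chosen after their values were seen, for a promoter motif. The groups and lists were chosen with earlier results of these data known. Alternatives were other scalings and filters, DESeq2 1.42.0, limma-voom (limma 3.58.1), stricter thresholds, all 11 libraries in the fit, a removed length and GC trend and each library left out. A few genes of these lists are not reported here.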

Additional observations from a re-analysis of the deposited data

Results flagged for a closer look

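For 12 genes the M1 and M0 effects differed by the interaction test over 11 libraries (edgeR's quasi-likelihood test, Benjamini-Hochberg adjusted). Apart from Ccl3 and Ccl4 these genes are the 5 largest falls and 5 largest rises of the M1 effect in the same libraries. That choice favours a large difference, and 27.3% of all genes passed this test. Anything that goes with the M1 KD replicate numbers enters the difference too and cannot be told apart from the gapmer. The difference is given here as the M1 minus the M0 effect on the log2 scale. Among chemokine and receptor genes it was -2.61 for Ccl3 (adjusted p = 0.00151), -3.12 for Ccl4 (0.00344), -4.17 for Fpr1 (0.000226) and -2.29 for Marco (0.0301). Fpr1 was at 5.35 to 7.40 CPM in M0 NS and at 2.54 to 2.80 in M0 KD, and its M0 effect, -1.29, was not called (adjusted p = 0.224). Marco was at 34.9 to 76.2 CPM in M0 NS and 21.6 to 37.9 in M0 KD, which overlap. The difference was -2.81 for Spata13 (0.00752), -3.01 for Rsrp1 (0.000321) and -3.30 for Kctd12 (0.000253), and the M0 groups overlapped in all 3. It was 3.34 for Aph1c (6.11e-05), 2.97 for Atp6v0d2 (0.000162), 2.27 for Mmp12 (0.0375), 3.27 for Gdf15 (0.000727) and 2.99 for Rragd (0.000571). In M0 NS, Aph1c was at 52.0 to 60.6 CPM, Atp6v0d2 at 165 to 234 and Rragd at 26.5 to 42.9, each above its 3 M1 NS values and within or above the range of its M1 KD values. Mmp12 was at 220 to 815 CPM in M0 NS, also above its M1 NS values.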

How the results depend on the processing

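The M1 count of 3104 genes (1558 higher, 1546 lower) stayed within 1.5 times under other scalings, filters, tools, the robust option and the removal of a length and GC trend. It was 5535 (2645 and 2890) with all 11 libraries in the fit, 1075 (546 and 529) at an adjusted p of 0.01 and 1105 (580 and 525) tested against a fold of 1.5. Leaving out 1 library gave 832 to 4025 genes, 433 to 2032 higher and 399 to 1993 lower, lowest without M1 KD replicate 5. With either M1 KD replicate out, M1 KD was 1 library, assumed to vary like M1 NS. Library-size scaling gave 1273 higher and 1705 lower, and upper-quartile scaling 2013 and 1223. Ccl3 stayed called throughout, at -3.03 to -1.71 with 1 library left out. Ccl4 ranged from -3.91 to -2.05 there (adjusted p 0.00823 to 0.0916), not called without M1 NS replicate 1 (-2.45), 2 (-2.60) or 4 (-2.99) or without M1 KD replicate 5 (-2.05), nor with no filter on low counts (-2.73, adjusted p = 0.138). The cause was not tested. Of 302 called genes named by rule, all kept their direction and 103 were called under each of up to 15 alternatives in which they were tested. The count of 4095 genes for the difference of effects was 2949 to 4751 with 1 library left out. For the M1 comparison no paired analysis was possible because the M1 KD replicate numbers 5 and 6 occur in no other group. In the other groups, 2 of 9 same-numbered pairs had deviations correlated over 0.1, and the numbers were not taken as pairs. Both pairs were of M0 NS with M0 KD, where r was 0.12, 0.034 and 0.117 for numbers 1, 2 and 4. These values do not settle whether the M0 libraries were paired. For the difference of effects, limma-voom with a random replicate block, chosen after seeing the data, called 3950 genes, against 4008 without it. The M0 effect was called in 782 genes with a replicate block over the 6 M0 libraries and in 1103 without. Depth limits what can be said of genes with few counts, such as the untested neighbours of Ccl3.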
